A study of Mus musculus with 10 samples.

Results

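The Hox genes of the HoxA, HoxB, HoxC and HoxD clusters were described over a chemical reprogramming course, as every gene row whose symbol is Hox followed by a, b, c or d and a number. The rule found 39 of 23201 genes: 11 of HoxA, 10 of HoxB, 9 of HoxC and 9 of HoxD. The study took mouse embryonic fibroblasts (MEFs) towards XEN-like cells, which resemble the extraembryonic endoderm of the yolk sac, with small molecules only, and counted the RNA molecules of single cells along the way. The cocktail, C6FAE, held CHIR99021 (a GSK3 inhibitor, 20 µM), a TGF-beta receptor inhibitor (the 6 of the name, 10 µM), Forskolin (an adenylyl cyclase activator, 50 µM), AM580 (a retinoid that activates retinoic acid receptor alpha, 0.05 µM) and EPZ004777 (an inhibitor of the histone methyltransferase DOT1L, 5 µM). The MEFs came from mid-gestation embryos of ICR mice after removal of the head, limbs and viscera, so the starting cells came from the trunk.

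Cells were grouped by the time point in their names: untreated MEFs at d0, and cells after 1, 2, 3, 4, 5, 6, 8, 12 and 20 days of the course at d1 to d20. Cells of d8c and d12c were picked from colonies. The cells called d6 here are named d6p in the data. What the p stands for was not stated in the sources used here, and they are placed with the unpicked groups. Every group after d0 had received the retinoid and the DOT1L inhibitor together with the other compounds, and cells could not be assigned to the 10 deposited samples, so each time point was 1 sample with no replicate and no test between time points was possible. All comparisons below are therefore descriptions, and their intervals (95%, exact) cover counting error only.

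Hox genes encode homeodomain transcription factors that give cells along the trunk their position. Each cluster is a row of genes numbered by paralogue group, with low numbers (1 to 4) used towards the head, middle numbers (5 to 8) in the thorax and high numbers (9 to 13) towards the tail and in distal limbs. The proteins bind DNA with cofactors of the Pbx and Meis families. Retinoic acid is a classical inducer of the low-numbered genes through its receptors, Cdx factors act on the middle of the clusters, Polycomb complexes keep silent genes off, and the MLL proteins with DOT1L mark active Hox genes.

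On mm9, the build named for the study's transcripts, HoxA lies on the minus strand of chromosome 6 (52105366 to 52210874), HoxB on the plus strand of chromosome 11 (96055630 to 96229570), HoxC on the plus strand of chromosome 15 (102751534 to 102867274) and HoxD on the plus strand of chromosome 2 (74506367 to 74603200). All are protein-coding genes packed closely enough that 6 of the 39 share exonic bases with another Hox gene (Hoxa2 with Hoxa3, Hoxb7 with Hoxb8, Hoxd3 with Hoxd4). In all, 8 overlap exons of a gene on the opposite strand, among them Hoxa7, Hoxa11, Hoxb2, Hoxb3 and Hoxb5. Whether the counting used strand was not stated, so reads of these genes and of their partners may not be told apart.

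The 250 bases before the transcription start of 4 members are shown because these genes carry the main patterns below: Hoxb4 and Hoxc4 were higher early in the course, Hoxd8 was among the few with RNA in most cells of d12, and Hoxa7 had its highest mean at d20. The sequences are RefSeq promoters on GRCm38, a later build than the mm9 of the study, and lie at chr11:96318017-96318266 (plus strand), chr15:103034145-103034394 (plus), chr2:74704365-74704614 (plus) and chr6:52218574-52218823 (minus). Capitals mark AGGTCA or AGTTCA, the half-sites bound by retinoic acid receptors, and TTTATG, a word of the kind bound by Cdx and posterior Hox proteins, each on either strand.

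Hoxb4: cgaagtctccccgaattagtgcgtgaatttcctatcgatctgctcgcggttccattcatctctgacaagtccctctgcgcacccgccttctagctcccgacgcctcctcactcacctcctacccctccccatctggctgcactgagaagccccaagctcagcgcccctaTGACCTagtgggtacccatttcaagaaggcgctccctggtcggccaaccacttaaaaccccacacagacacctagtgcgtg
Hoxc4: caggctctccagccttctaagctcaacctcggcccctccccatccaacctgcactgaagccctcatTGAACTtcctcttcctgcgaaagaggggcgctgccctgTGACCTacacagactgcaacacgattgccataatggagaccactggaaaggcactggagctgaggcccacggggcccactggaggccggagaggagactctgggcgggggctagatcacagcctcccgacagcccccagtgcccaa
Hoxd8: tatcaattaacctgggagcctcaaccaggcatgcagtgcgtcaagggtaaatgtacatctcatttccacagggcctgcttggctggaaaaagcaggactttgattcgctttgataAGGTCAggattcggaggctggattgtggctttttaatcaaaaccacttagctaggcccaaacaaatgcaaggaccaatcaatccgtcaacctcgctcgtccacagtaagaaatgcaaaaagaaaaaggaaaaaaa
Hoxa7: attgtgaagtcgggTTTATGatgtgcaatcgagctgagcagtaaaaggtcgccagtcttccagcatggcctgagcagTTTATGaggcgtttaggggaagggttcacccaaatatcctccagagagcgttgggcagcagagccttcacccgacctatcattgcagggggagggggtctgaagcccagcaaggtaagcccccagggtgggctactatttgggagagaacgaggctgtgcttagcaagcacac

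Hoxb4 holds AGGTCA on the opposite strand (TGACCT), Hoxc4 holds both half-sites on the opposite strand, Hoxd8 holds AGGTCA as read, and Hoxa7 holds TTTATG at 2 places and no half-site. Windows running to 50 bases after the start were at hand for 22 of the 39 genes (24 windows). AGGTCA was in 7 of the 24 Hox windows against 16.3% of 32851 windows of the same length genome-wide, AGTTCA in 2 against 13.99%, TTTATG in 5 against 11.9%, and TGATNNAT, the word bound by Pbx with Hox, in 4 against 8.85%. The median Hox window held 14.5 CpG dinucleotides and the median of all windows 7. The matches are letters only, and binding was not measured.

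Of 808 cells, 670 had at least 4000 detected genes and were kept, 20 at d8c to 86 at d6. Their median depth per group ran from 195546 UMIs (unique molecular identifiers, each 1 counted RNA molecule) at d20 to 1055260 at d2. Values are CPM, the gene's UMIs divided by all gene UMIs of the cell and brought to a common total. They were not scaled by gene length, so a level was compared between groups and not between genes. The ERCC spike-in RNAs made up 3.04% of the UMIs at d0, against 11.4% at d12, 18.0% at d20 and 13.9% in the picked d12c cells, so CPM describes shares of each cell's RNA and not amounts per cell. Most markers went with the labels: the summed level of 10 fibroblast genes had a mean of 3732 CPM at d0, 13105 at d12 and 297 at d20, and that of 10 XEN genes a mean of 215, 267 and 2034. Col4a1 and Dab2 made up most of the XEN sum at d0, with 148 and 55.1 CPM. Sox17 had 0.11 CPM at d0, 70.7 at d12 and 982 at d20. At d12, 4 of 6 tested XEN genes were higher than at d0 and 0 lower, beside 19.3% of all genes each way. At d20, 8 of the 10 fibroblast genes were lower than at d0 and Pdgfra was higher (201 against 28.2 CPM), beside 19.1% and 23.1%. Of the other marker lists, the 4 epithelial genes had a mean of 42.4 CPM at d0 and 2245 at d20, the 4 muscle genes one of 122 CPM at d0 (15.7 without the highest cell) and 8.87 at d20, and the endothelial, haematopoietic and neural crest lists reached group means of at most 59.1 CPM. Their part in the Hox levels was not tested.

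Among the unpicked groups, the summed Hox level was highest in the first days of the cocktail, lowest at d12, and near its starting share of RNA in the XEN-like cells of d20. At d0 the mean over cells was 251 CPM, and it was 312 at d1, 402 at d2, 391 at d3, 440 at d4 and 471 at d5. The d1 rise holds for the mean only. The middle cells of d1 lay at 181 and 188 CPM, below those of d0 at 200 and 204. The mean was then lower, with 325 at d6, 192 at d8 and 88.4 at d12. At d20 it was 291. Cells differed widely within every group: the quartiles were 103 and 324 CPM at d0, 250.4 and 640.5 at d5, 35.3 and 109 at d12, and 147 and 387 at d20. The quartile ranges of d5 and d12 did not overlap, and those of d0 and d20 largely did. Every kept cell from d0 to d8c had Hox RNA, whereas 2 of 67 at d12 and 3 of 38 at d20 had none.

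**Figure D1:**
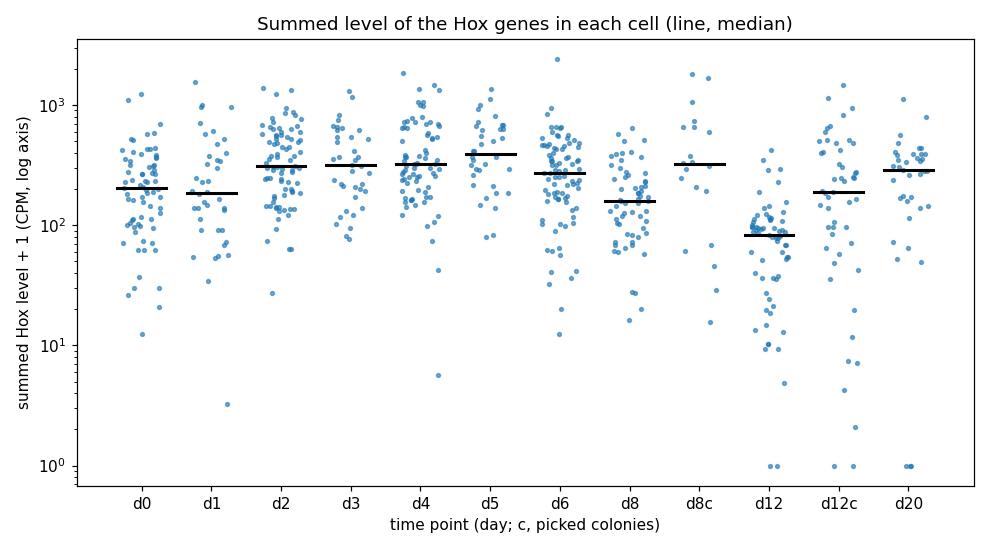
Each point is 1 kept cell and gives the summed level of the 39 Hox genes plus 1, in CPM on a log axis, by time point; the line is the median. Medians are 202 CPM at d0 and 391 at d5, with that of d1 below d0, and they drop to 81.3 at d12 and stand at 286 at d20.

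The part of this that is an amount per cell depended on the scale. Scaled to the spike-ins in place of all gene UMIs, the d5 to d0 difference of the summed level was 0.61 (log2) against 0.91 in CPM, that of d12 to d0 was -3.40 against -1.49, and that of d20 to d0 was -2.37 against 0.21. The median of all tested genes moved as well, to -2.49 at d20 and -2.03 at d12, and the Hox sum lay 0.12 above that median at d20 and 1.36 below it at d12 (0.02 above and 1.35 below in CPM). With edgeR's TMM factors the median of all genes at d20 against d0 moved from 0.19 to -0.10, and the Hox sum lay 0.04 above it. So the similar height of d0 and d20 holds for shares of RNA only, while the low level at d12 held on both scales.

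At d0, 14 of the 39 genes reached a mean of 5 CPM, the minimum set for a described level. They ran from paralogue number 2 to 13: Hoxa5, Hoxa7, Hoxa9 and Hoxa10, Hoxb2, Hoxb3 and Hoxb7, Hoxc4, Hoxc5, Hoxc8, Hoxc9, Hoxc10 and Hoxc13, and Hoxd8. Hoxa7 had a mean of 37.2 CPM, with UMIs in 36 of 72 cells and a highest cell of 778 CPM. Hoxc9, a gene of the lower thorax, had a mean of 34.8 CPM with UMIs in 38 cells. Hoxc13, used in the tail and in hair, had 5.22 CPM, of which 1 cell gave most, since the mean without that cell was 1.11 CPM. The cluster sums at d0 were 84.9 CPM for HoxA, 44.6 for HoxB, 101 for HoxC and 19.7 for HoxD.

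**Figure D2:**
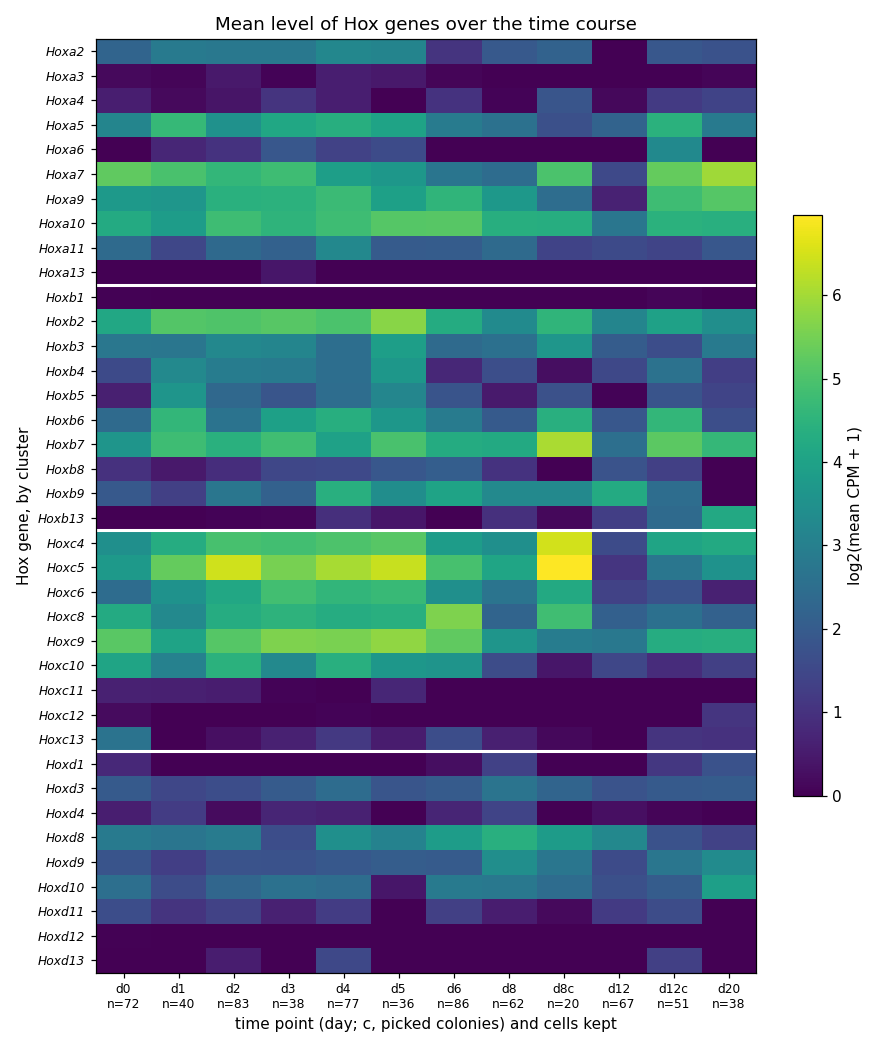
Mean level of 38 of the 39 Hox genes, as log2(mean CPM + 1), by time point; rows are ordered by cluster and paralogue number, white lines part the clusters, and n is the number of cells kept. Hoxb2, Hoxb4, Hoxb7, Hoxc4, Hoxc5 and Hoxc6 are brighter than at d0 in each group from d1 to d5 and darker at d12, while Hoxa7, Hoxb13 and Hoxd10 peak at d20.

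Within 1 day of the cocktail, genes in the middle of HoxB were higher and several at the back of HoxC were lower. The HoxB sum was 111 CPM at d1 against 44.6 at d0, and 82.1 without the highest cell. A gene was called higher or lower where its mean CPM + 1 differed over 2-fold and reached 5 CPM in either group. Of 19 Hox genes tested at d1 against d0, 7 were higher, where 9.75% of all tested genes were higher, and 3 were lower, where 11.7% of all were lower. The 7 were Hoxa5, Hoxb4, Hoxb5, Hoxb6, Hoxb7, Hoxc5 and Hoxc6, all of paralogue numbers 4 to 7. Hoxb6 had a mean of 4.25 CPM at d0 and 23.2 at d1, and Hoxb4 one of 1.94 and 8.73. Without the highest cell of d1 these means were 13.2 and 5.33 CPM. The 3 lower were Hoxc9 (34.8 to 15.5 CPM), Hoxc10 (15.8 to 7.35) and Hoxc13. By class, paralogues 1 to 4 summed to 44.0 CPM at d0 and 75.8 at d1, paralogues 5 to 8 to 103 and 180, and paralogues 9 to 13 to 103 and 56.1. The lower posterior level was found at d1 alone among the early groups, as their sum was 121 CPM at d2 and 115 at d3.

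By d2 the HoxC sum was 207 CPM against 101 at d0, and it stayed between 180 and 229 to d5. Hoxc5, a gene of the neck and upper trunk, had a mean of 12.4 CPM at d0, 38.6 at d1, 85.7 at d2, 45.0 at d3, 65.1 at d4 and 82.3 at d5. The count behind it was 605 UMIs at d0 (interval 558 to 655) and 2102 at d5 (2013 to 2194), and 51 of 72 cells held a UMI at d0 against 34 of 36 at d5. These counts are not at equal depth, as the median cell had 344222 UMIs at d0 and 751879 at d5. Hoxc4, the neighbour of Hoxc5, had 10.0 CPM at d0, 29.6 at d2 and 34.4 at d5, and Hoxc6 4.48, 17.0 and 24.7. The group means of all 3 stood above d0 from d1 to d5. Within a group Hoxc5 differed by the number in the cell's name: for numbers 1 to 24, 25 to 48, 49 to 72 and 73 to 96 its means at d4 were 16.7, 23.1, 96.6 and 138 CPM, and at d5 the ranges 1 to 24 and 25 to 48 had 109 and 28.5. At d0 the number ranges ran from 6.74 to 19.2 CPM, so the lowest range of d4 lay within those of d0. Hoxc8 did not share this, with 18.0 CPM at d0 and 20.1 at d5.

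At d5 most of HoxB and the front of HoxC were higher than at d0. Of 20 Hox genes tested against d0, 10 were higher and 2 lower, beside 20.4% and 10.2% of all tested genes, and the median difference of the 20 was 1.01 (log2) against 0.18 over all genes. The 10 were Hoxb2, Hoxb3, Hoxb4, Hoxb5, Hoxb6, Hoxb7 and Hoxb9, with Hoxc4, Hoxc5 and Hoxc6. No HoxA or HoxD gene was called higher. Hoxa2, Hoxa5 and Hoxa10 lay just under the 2-fold threshold, with differences of 0.89, 0.88 and 0.86 (log2), and Hoxd8 was the 1 HoxD gene tested. Hoxb2, which patterns the hindbrain, had 51.2 CPM against 16.9 at d0, with UMIs in 30 of 36 cells. Without its highest cell the d5 mean was 42.3 CPM. The 2 lower genes were Hoxa7, at 11.9 CPM, and Hoxc13. Paralogues 1 to 4 summed to 123 CPM at d5, 5 to 8 to 217 and 9 to 13 to 132, so the classes that differed most from d0 were the low and middle numbers. Hoxb1, the HoxB gene closest to the head end and a textbook retinoid target, was not among the higher genes and had a UMI in 2 of all 670 cells.

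From d6 the genes left in different orders. Hoxb4 was already at 0.71 CPM at d6, against 11.7 at d5. Hoxa7 was at 5.52, while Hoxa10 was at its highest mean of the course, 34.3 CPM in 71 of 86 cells. Hoxc8 had its highest mean at d6 too, 47.5 CPM, but 20.4 without the highest cell. At d8, 5 of 19 tested genes were lower than at d0 (Hoxa7, Hoxc8, Hoxc9, Hoxc10 and Hoxc13, beside 14.9% of all genes) and 3 higher (Hoxb9, Hoxd8 and Hoxd9, beside 18.6%). Hoxd8 had its highest mean of the course there, 19.9 CPM against 6.16 at d0, and HoxD as a whole stood at 44.7 CPM against 19.7. By number in the cell's name, Hoxd8 had 22.1 CPM at d8 for 1 to 24, 35.3 for 25 to 48 and 2.18 for 49 to 72, the last below the d0 mean.

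At d12 the unpicked cells had little HoxA and HoxC RNA. Of 15 genes tested against d0, 10 were lower, beside 19.3% of all tested genes, and 1 was higher, beside 19.3% as well; the median of the 15 was -1.88 (log2) against -0.14 over all genes. HoxA summed to 13.8 CPM and HoxC to 15.7, against 84.9 and 101 at d0, and the median cell held 0.50 and 2.28 CPM. Hoxa7 had 1.89 CPM with UMIs in 4 of 67 cells, Hoxa9 0.58 CPM in 9 cells, and Hoxc5 1.12 CPM in 10 cells. The HoxB sum was 42.3 CPM against 44.6, and the HoxD sum 16.5 against 19.7. The level HoxB sum hides members that differed in direction. Hoxb7 was among the 10 lower genes, at 4.82 CPM against 11.4. Hoxb2 (8.02 against 16.9) and Hoxb3 (3.09 against 5.75) were lower by less than 2-fold on mean CPM + 1. The 1 higher gene was Hoxb9, a gene of the thoracic and lumbar trunk, at 17.9 CPM against 2.87 at d0. It had a UMI in 47 of 67 cells against 17 of 72, and after thinning every cell to 50000 UMIs in 31.8% of cells (20.9 to 44.4) against 11.3% (4.99 to 21.0). Hoxd8 was at 8.40 CPM with a UMI in 46 of 67 cells. Hoxb9 was not particular to d12, having 19.999 CPM at d4 and 15.4 at d6. Split by the number in the cell's name (1 to 24, 25 to 48 and 49 to 72), d12 cells had summed levels of 72.2, 105 and 86.1 CPM.

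At d20, in cells with XEN markers, most of the sum came from genes that were also at 5 CPM or more at d0. Of 18 genes tested against d0, 6 were higher (Hoxa9, Hoxb7, Hoxb13, Hoxd9 and Hoxd10 among them), beside 23.1% of all genes, and 4 lower (Hoxc8, Hoxc10, Hoxc13 and Hoxd8), beside 19.1%. Scaled to the spike-ins, 0 of 20 tested were higher and 19 lower, beside 1.97% and 91.8% of all genes. Of the 14 genes that reached 5 CPM at d20, 10 (71.4%) had also done so at d0, beside 84.2% of all genes at that level, and these 10 gave 209 of the 291 CPM. Hoxa7 had a mean of 60.8 CPM, a median of 34.0 and UMIs in 23 of 38 cells, against 37.2, 0.42 and 36 of 72 at d0. At equal depth it was in 55.6% of cells (38.1 to 72.1) against 38.03% (26.8 to 50.3), intervals that overlap. Hoxa9 had 33.6 CPM in 15 cells, with 23.8 CPM without the highest, and 12.3 CPM at d0. HoxA as a whole had its highest sum here, 142 CPM, and HoxC was at 55.7 CPM, of which 1 cell gave much, as the sum was 33.1 without it.

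Hoxb13 and Hoxd10 were among the genes with their highest mean at d20. Hoxb13, the most posterior gene of HoxB and known from the tail and the prostate, was listed at 0 in all 72 cells of d0 (a share of up to 4.17% is allowed by this count) and had a mean of 17.5 CPM at d20 with 160 UMIs (136 to 187) in 7 of 38 cells. Those cells were few and high: all 7 were at or above 20 CPM, the highest was at 274 CPM, and the mean without it was 10.6 CPM. Hoxd10, a posterior HoxD gene of the limb and lumbar trunk, was at 14.1 CPM in 11 cells, against 4.85 CPM at d0 and 2.24 at d12. Hoxd9 was at 9.29 CPM in 7 cells, and at 5.21 without the highest, against 9.76 CPM in 29 of 62 cells at d8. Hoxb9 had no UMI in any of the 38 cells (up to 7.89%). Hoxb8 and Hoxa6 were also at 0, Hoxd8 was at 1.58 CPM in 3 cells, and Hoxc8 rested on 1 cell with 54 UMIs.

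Set against d12, d20 cells were higher in 11 of 16 tested Hox genes, beside 30.8% of all genes, and lower in 2, Hoxb9 and Hoxd8, beside 22.9%. Among the 11 were Hoxa7, Hoxa9, Hoxa10, Hoxb7, Hoxb13, Hoxc4, Hoxc5, Hoxc9, Hoxd9 and Hoxd10. This comparison and those with d0 share their d12, d20 or d0 cells. The median difference of the 16 was 1.94 (log2) against 0.32 over all genes. Scaled to the spike-ins, 4 of only 6 tested were higher and 1 lower, beside 11.5% and 36.6% of all genes. Depth differed as well, with a median of 768583 UMIs at d12 and 195546 at d20, and in cells thinned to 50000 UMIs the summed Hox difference was 1.79 against 1.71 unthinned.

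**Figure D3:**
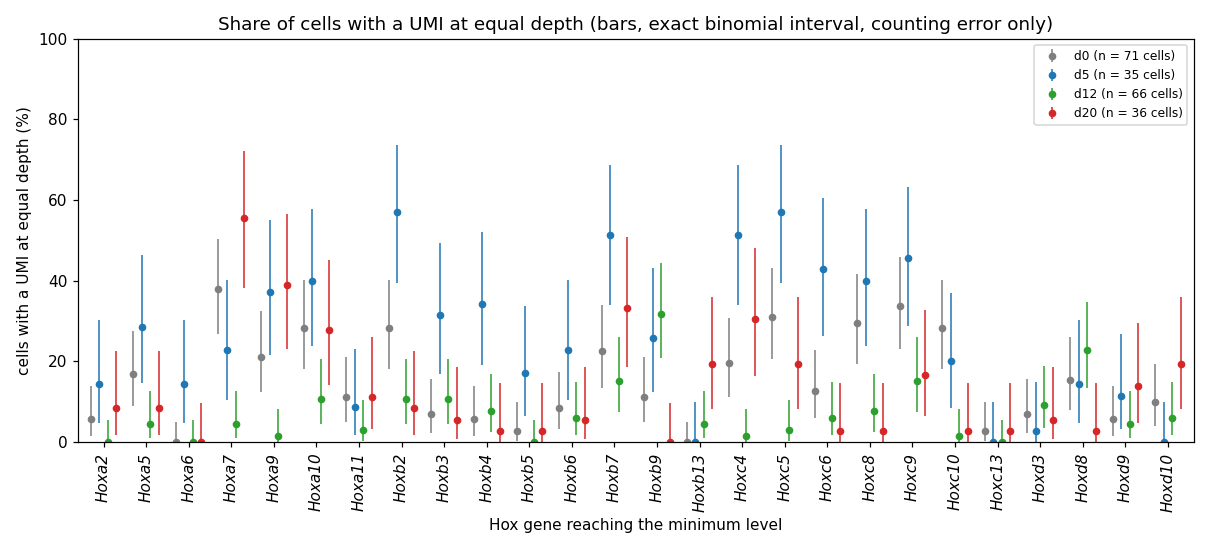
Share of cells with a UMI after thinning each cell to 50000 UMIs, for 26 of the 27 Hox genes that reached 5 CPM in any group; points are shares in percent at d0, d5, d12 and d20 and bars exact 95% binomial intervals, which cover counting error only. Hoxb9 is in 31.8% of d12 cells and in none of 36 at d20, while Hoxa7 is in 4.55% at d12 and 55.6% at d20.

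Cells picked from colonies differed from the unpicked cells of the same day. At d8c the summed level was 486 CPM (417 without the highest of 20 cells) against 192 at d8. Hoxc5 was at 123 CPM, Hoxc4 at 88.0 and Hoxb7 at 66.3, the highest means of these genes in the course, against 15.9, 10.0 and 17.7 at d8. Paralogues 9 to 13 summed to 51.4 CPM there against 75.6 at d8, and Hoxc10 was at 0.35 CPM. The 20 cells held a mean of 9903 CPM of the fibroblast genes and 151 CPM of the XEN genes, so they were not XEN-like by these markers.

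The d12c cells differed by the number in their names. Cells numbered 1 to 24 (21 kept) had a mean of 7996 CPM of fibroblast genes and 499 CPM of XEN genes, and cells 49 to 96 (30 kept) had 299 and 1594 CPM. The summed Hox level was 136 CPM in the first and 390.0 in the second, with 492 for numbers 49 to 72 and 288 for 73 to 96. Of 14 Hox genes at 5 CPM or more at d20 and 15 in the second set, 11 were shared, which is 78.6% of the first list and 73.3% of the second. Over all genes at that level the shares were 87.01% and 89.9%, and d0 and d20 shared 71.4% of their Hox genes, so this overlap does not set the second set apart. Hoxa7 was at 59.7 CPM in 18 of 30 cells, Hoxa9 at 37.3 and Hoxa10 at 29.1. Hoxb13 was at 7.27 CPM in 4 cells (3.98 without the highest) and Hoxb9 at 3.46 CPM in 3. They were unlike d20 in Hoxa5 (35.3 against 6.24 CPM) and Hoxb6 (33.1 against 2.17). In the first set Hoxa7 was at 8.31 CPM in 2 of 21 cells, Hoxb9 in 13 and Hoxd8 in 14. What the number ranges stand for was not stated in the sources used here. The d20 cells also differed by number, with 383 CPM for numbers 1 to 24 and 219 and 232 for the later ones, and Hoxa7 was at 75.1, 75.5 and 6.41 CPM in these 3 ranges.

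The remaining members were low throughout. Of the 39, 27 reached 5 CPM in at least 1 of the 12 groups and 12 did not, with highest group means of 0.036 (Hoxd12) to 3.25 CPM (Hoxb8). The 12 were Hoxa3, Hoxa4, Hoxa13, Hoxb1, Hoxb8, Hoxc11, Hoxc12, Hoxd1, Hoxd4, Hoxd11, Hoxd12 and Hoxd13, which includes both ends of the clusters. Hoxd12 was seen in 1 cell, Hoxb1 in 2 and Hoxa13, a gene of the distal limb and hindgut, in 3 of the 670. Among those that passed, Hoxa2 was highest at d4 with 8.33 CPM, Hoxa6 at d12c with 8.82, Hoxa11 at d4 with 8.42, Hoxb3 at d5 with 13.8 and Hoxd3 at d8 with 5.43.

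Hox RNA was sparse within cells, and different members were seen in cells of 1 time point. How much of this came from sampling was not tested. Where a Hox gene was seen in a cell, the median count was 4 UMIs, 32.0% of such values were 1 UMI, and the highest was 792. At equal depth the median cell held UMIs of 4 Hox genes at d0, 6 at d2, d3 and d4, 7 at d5, 5 at d6, 3 at d8, 2 at d12 and 3 at d20, and 5 in d12c cells 49 to 96. Without thinning the medians were 8.5 at d0, 12.5 at d5, 6 at d12 and 4 at d20. No Hox UMI was left in 8 of 66 thinned cells of d12 and 3 of 36 of d20, against 0 of 35 at d5. HoxA was seen in 21.2% of d12 cells and 80.6% of d20 cells at that depth, HoxB in 62.1% and 58.3%, HoxC in 31.8% and 58.3%, and HoxD in 34.8% and 30.6%. A gene of numbers 10 to 13 was in 47.9% of cells at d0, 24.2% at d12 and 55.6% at d20.

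Neighbouring genes were not always seen together. Of the 36 thinned d20 cells, 27 held Hoxa7, Hoxa9 or Hoxa10, and 3 held all of them. At d5, 25 of 35 cells held Hoxc4 or Hoxc5 and 13 held both, against 28 and 8 of 71 at d0. At d12, 29 of 66 cells held Hoxb9 or Hoxd8 and 7 both. At d20, 1 of 36 held either.

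The cofactor gene Meis2 was higher at d5 and lower at d20 than at d0. Of 9 listed Pbx, Meis and related genes, 2 of 8 tested were higher at d5 (Meis2 among them) and 1 lower, beside 20.4% and 10.2% of all genes. At d20 0 of 7 tested were higher and 4 lower than at d0 (Meis1, Meis2 and Pknox2 among them), beside 23.1% and 19.1%. Meis2 had a mean of 37.9 CPM at d0, 105 at d5, 27.1 at d12 and 8.06 at d20, where 9 of 38 cells had a UMI. Meis1 had 38.6, 58.8, 13.9 and 7.68 CPM at the same time points. At d20 both genes were below their d0 level, whereas the Hox sum in CPM was near its own.

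**Figure D4:**
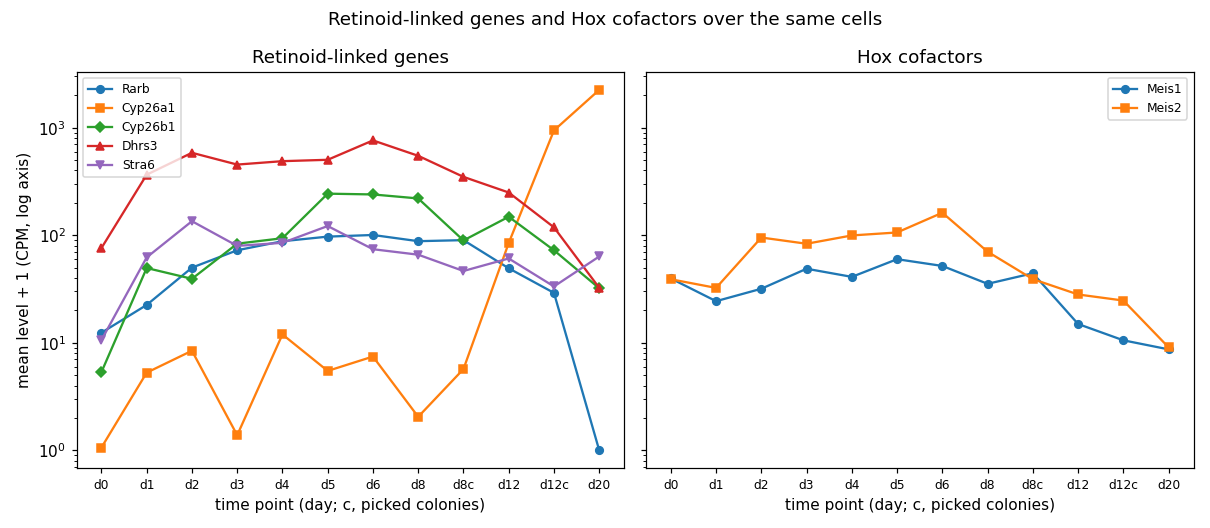
Mean level plus 1 in CPM on a log axis, by time point, for 5 genes linked to retinoid signalling (left) and 2 Hox cofactors (right). Rarb stands at 96.02 CPM at d5 and at 0 at d20, Cyp26a1 reaches 2245 CPM at d20, and Meis2 is at 8.06 CPM there.

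Genes that respond to or handle retinoids were read in the same cells. Of 21 listed, 7 of 14 tested were higher and 1 lower at d1, 11 of 17 higher and 2 lower at d5, 13 of 19 higher and 0 lower at d12, and 5 of 16 higher and 5 lower at d20. Over all tested genes 9.75% were higher and 11.7% lower at d1, 20.4% and 10.2% at d5, 19.3% each way at d12, and 23.1% and 19.1% at d20, so the d20 counts lay nearer to the background than the others. Dhrs3, which turns retinal back into retinol, had 74.99 CPM at d0, 364 at d1, 502 at d5, 249 at d12 and 31.4 at d20. Rarb, the receptor gene that retinoic acid itself induces, had 11.4, 21.5, 96.02, 48.3 and 0 CPM, with no UMI in 38 cells of d20. A single cell gave most of the d0 level, which was 3.41 CPM without it. Stra6, a retinol transporter, had 9.59, 61.2, 121, 59.8 and 62.4 CPM. Cyp26b1, an enzyme that breaks down retinoic acid, had 4.33, 48.5, 242, 147 and 31.1 CPM, the last being 15.9 without the highest cell. Its relative Cyp26a1 had 0.061 CPM at d0, 4.47 at d5, 83.5 at d12 and 2245 at d20, where all 38 cells held it, and 1338 CPM in d12c cells 49 to 96. Most tested genes of the list were higher than at d0 at d12, the group with the lowest Hox sum. The same held at d5, the unpicked group with the highest. From d5 to d12 the means of Dhrs3, Rarb, Stra6 and Cyp26b1 were lower and that of Cyp26a1 was higher. A link between these levels and the Hox sum was not tested. The retinoid and the DOT1L inhibitor were given together from d1 on, so their parts in the Hox levels cannot be told apart here.

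Genes of the machinery that EPZ004777 is aimed at were called higher about as often as all genes. The 15 listed names of DOT1L and MLL complex genes stand for 14 genes, as Mll1 is an older symbol of Kmt2a. Of these, 1 of 14 tested was higher at d1, 3 of 14 at d5, 3 of 13 at d12 and 3 of 14 at d20, beside 9.75%, 20.4%, 19.3% and 23.1% of all genes. The counts of lower genes were 0, 0, 2 and 1, beside 11.7%, 10.2%, 19.3% and 19.1% of all genes. Dot1l had 8.45 CPM at d0, 8.23 at d5, 28.3 at d12 and 16.3 at d20 (9.95 without the highest cell), the level of its RNA and not of its activity. Kmt2a, which encodes MLL1, had 32.2, 54.7, 24.5 and 14.9 CPM, and Men1, an MLL partner, 16.3, 31.6, 16.3 and 52.5. Of 17 Polycomb genes, 6 of 13 tested were higher and 0 lower at d1, 6 and 0 of 13 at d5, 3 and 3 of 11 at d12, and 6 and 1 of 13 at d20. The all-gene shares just given for higher genes lay below the higher counts at d1, d5 and d20. Those for lower genes lay above the lower counts at the same time points, with few genes tested. At d12 the list was near the 19.3% found in each direction. Ezh2, the methyltransferase that places the silencing mark, had 68.7, 85.7, 24.7 and 134 CPM at d0, d5, d12 and d20. Cbx2 stayed between 0.30 and 13.1 CPM.

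Of the Cdx genes, which act upstream of trunk Hox genes, Cdx2 came late. Cdx2 had no UMI from d0 to d8c, and then means of 10.3 CPM at d20, 7.20 at d12c and 0.99 at d12. At d20 8 of 38 cells held it, and it was at 12.2 CPM in d12c cells 49 to 96 and at 0.10 in cells 1 to 24. Cdx1 was at 2.32 CPM at d20 in 4 cells and at 0.29 CPM at d0 in 2 cells, and Cdx4 was at 0 in all 670 cells. Of the other genes of that list of 8, Gsx2 and Evx1 reached 5 CPM. Gsx2, a ParaHox gene known from the forebrain, was chosen after its values were seen. It had 79.7 CPM at d20 in 31 of 38 cells and no UMI from d0 to d6. Evx1 had 6.50 CPM at d8c in 3 of 20 cells, and 1.55 without the highest cell. Of 18 other genes that mark position in the trunk and limbs, 2 of 10 tested were higher and 6 lower at d20 than at d0, beside 23.1% and 19.1% of all genes, and 4 and 3 of 10 at d12, beside 19.3% each.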

How the data were processed

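Single cells were picked by hand, and the authors deposited 1 table of UMI counts, whole numbers per gene and cell, with no normalization. The transcriptome was mm9 per the study's methods; the aligner and the use of strand are not given in the sources used here. The 92 ERCC rows and 4 rows with duplicated, date-like names were left out of totals and tests. The analysis kept cells in which 4000 or more genes were detected, and counts were scaled to CPM. Cells carried a time point but no sample, so no test was run. A gene was tested where its mean reached 5 CPM in either group and called at over 2-fold on mean CPM + 1. Members that reached 5 CPM in any group are described by value. For shares, 647 cells were thinned to 50000 UMIs, 23 shallower cells being left out. Intervals are exact (95%; Poisson or Clopper-Pearson). A share of 0 was given with the limit of 3 counts. Gene positions are from GENCODE M1, where Hoxa3 names 2 gene entries. Counts were simulated from the means, spread and depths of d0, with the cell numbers of d20 and d0. There, 200 of 200 genes of at least 20 CPM changed 4-fold were called, and 8.12% of unchanged ones. Neither recovery nor the share of unchanged genes called was tested separately at the levels of the Hox genes or at the depth of d20. The Hox genes and the lists were chosen with earlier results of these data known. The listed name Mll1 had no row, but it is an older symbol of Kmt2a, which was listed and has a row. Some listed genes are not reported here singly but stay in the sums and counts. Filters, scaling (edgeR 4.0.16 TMM, DESeq2 1.42.0 size factors, spike-ins), pseudocount, depth and thresholds were varied. The analysis used Python 3.11.15, numpy 2.4.6, pandas 2.3.3 and R 4.3.3.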

Additional observations from a re-analysis of the deposited data

How the results depend on the processing

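Of 180 values recomputed under the alternatives, 107 were close to the reported one and 73 moved. A change of sign was counted only for summed differences past 2-fold, and 0 of those changed sign. The smaller d20 to d0 sum was not counted this way and did change sign. No paired analysis was possible because cells carried no sample name, and for that reason no replicate was left out. Single cells of high value and the depth of d20 limit the single-gene means, and the choice between gene UMIs and spike-ins decides amounts per cell.

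The summed difference of d5 to d0 (0.91 on the log2 scale) was 0.85 with no filter on cells, 0.76 with at least 6000 genes, 0.72 with summed UMIs, 0.70 with TMM, 0.72 with size factors, 0.61 with spike-ins and 0.95 without the highest cell of each gene. That of d12 to d0 (-1.49) was -1.65 with no filter, -1.56 and -1.60 with at least 2000 and 6000 genes, -1.37 with TMM, -1.32 with size factors, -3.40 with spike-ins, -1.41 with a pseudocount of 10 and -1.66 without the highest cells. That of d20 to d0 (0.21) was -0.03 with no filter, -0.02 and 0.62 with at least 2000 and 6000 genes, 0.45 with summed UMIs, -0.06 with TMM, 0.06 with size factors, -2.37 with spike-ins, 0.05 without the highest cells and 0.32 thinned, so its sign was not fixed. That of d20 to d12 (1.71) was 1.62 with no filter, 1.54 and 2.22 with at least 2000 and 6000 genes, 1.90 with summed UMIs, 1.31 with TMM, 1.39 with size factors, 1.03 with spike-ins, 1.61 with a pseudocount of 10 and 1.79 thinned.

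At d5 the 10 higher Hox genes became 4 with a pseudocount of 10, 5 at 3-fold and 5 with a minimum of 20 CPM, and the 2 lower became 1 with no filter, with a pseudocount of 10, without the highest cells, at 3-fold and with the minimum of 20, and 4 with spike-ins or no minimum. At d12 the 1 higher became 2 with no minimum and 0 with a minimum of 20 CPM, and the 10 lower became 20 of 21 tested with spike-ins (82.1% of all genes), 6 with a pseudocount of 10 and 2 with the minimum of 20. At d20 against d0 the 6 higher became 0 with spike-ins (1.97% of all genes) and 2 with a pseudocount of 10, at 3-fold or with the minimum of 20, and the 4 lower became 7 with no filter or no minimum, 19 with spike-ins (91.8% of all genes), 2 with a pseudocount of 10 and 0 with the minimum of 20. Against d12 the 11 higher became 17 with at least 6000 genes, 4 of 6 tested with spike-ins (11.5% of all genes), 6 with a pseudocount of 10 and 4 with the minimum of 20, and the 2 lower became 1 with spike-ins or a pseudocount of 10, 4 with no minimum and 0 with the minimum of 20. The stricter minimum leaves fewer genes to test. The cause of the other shifts was not tested. Hox genes per cell were 8.5 at d0, 12.5 at d5 and 6 at d12 with no thinning, 4 at d5 and 1 at d12 thinned to 20000 UMIs, and 2, 5 and 1 counting only genes with at least 2 UMIs.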
